A study of Homo sapiens with 8 samples.

Results

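The nuclear pore genes are 30 of the 60664 genes in the count files: every symbol made of NUP and a number, plus SEC13, SEH1L, RAE1, AAAS, NDC1, POM121, POM121C, TPR and RANBP2. HEK293T cells, an immortal line derived from human embryonic kidney, expressed APEX2, a peroxidase that attaches biotin to RNA close to it, and biotin-bearing RNA was collected on streptavidin and sequenced. The enzyme sat in the nucleus (NLS) or on the outer face of mitochondria (OMM). Each site had 2 labelled libraries and 2 unlabelled control libraries, all from cells expressing APEX2, so a control gives the RNA recovered without labelling and not the RNA of whole cells. The groups are labelled NLS, control NLS, labelled OMM and control OMM. The sources used here give neither the promoter of the APEX2 construct nor whether the cells are 1 clone. Per the labels, the ribominus NLS libraries came from the SMARTer kit for total RNA, whereas the trizol OMM libraries came from the TruSeq kit for mRNA, so the site of the enzyme and the kit cannot be told apart. No label states that the libraries of a group are separate cultures, and p-values therefore cover library-to-library spread that may be technical.

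The nuclear pore complex is the channel through which proteins and RNA pass between nucleus and cytoplasm. An outer ring built of Y-shaped complexes and an inner ring form its scaffold, membrane-spanning nucleoporins hold the scaffold in the nuclear envelope, and nucleoporins rich in phenylalanine-glycine (FG) repeats fill the channel and bind transport receptors. Filaments extend into the cytoplasm and a basket extends into the nucleus. The nuclear envelope is continuous with the endoplasmic reticulum (ER), where mRNAs of membrane proteins are translated, whereas soluble nucleoporins are made in the cytosol.

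The question for these genes was whether mRNAs of transmembrane nucleoporins (NDC1, NUP210 and POM121, with the near-identical copy POM121C beside them) were recovered differently from those of soluble nucleoporins. Hydrophobic stretches of the coding sequence of the transmembrane genes are shown first. Each line gives 81 bases of the mRNA strand, read from GENCODE release 29 on GRCh38, and the capitals mark 19 codons whose encoded residues average at least 1.6 on the Kyte-Doolittle hydropathy scale, on which higher means more hydrophobic. For NDC1, POM121 and POM121C it is the most hydrophobic window of the coding sequence; for NUP210 both the first window past that threshold and the most hydrophobic one are shown.
NDC1 codons 69 to 87: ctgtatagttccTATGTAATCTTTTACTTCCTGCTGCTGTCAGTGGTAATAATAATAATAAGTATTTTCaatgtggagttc
NUP210 codons 8 to 26: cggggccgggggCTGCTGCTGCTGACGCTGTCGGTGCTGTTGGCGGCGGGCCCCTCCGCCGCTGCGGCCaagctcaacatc
NUP210 codons 1809 to 1827: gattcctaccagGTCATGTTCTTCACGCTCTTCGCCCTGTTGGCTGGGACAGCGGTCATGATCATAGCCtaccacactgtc
POM121 codons 34 to 52: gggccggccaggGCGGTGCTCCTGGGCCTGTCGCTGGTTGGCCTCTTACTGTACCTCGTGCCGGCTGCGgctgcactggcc
POM121C codons 42 to 60: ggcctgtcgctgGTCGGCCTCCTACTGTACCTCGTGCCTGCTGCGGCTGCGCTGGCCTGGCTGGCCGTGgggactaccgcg

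NDC1 lies at chr1:53765460-53838860 on the minus strand and NUP210 at chr3:13316235-13420309 on the minus strand. POM121 lies at chr7:72879365-72951440 on the plus strand and POM121C at chr7:75416787-75486271 on the minus strand. The windows above are exonic and coding in each of the 4 genes. The first NUP210 window averaged 1.96. The mean hydropathy of the best window was 2.91 for NDC1, 2.44 for NUP210, 2.31 for POM121 and 2.21 for POM121C. Among the 26 soluble members it ran from 0.55 for NUP54 to 2.03 for NUP205, and 10 of the 26 had a window of at least 1.6, so the best windows of the transmembrane genes all lay above those of the soluble genes. The coding sequences of POM121 and POM121C were identical at 3608 of 3678 aligned bases (98.1%). Of all stretches of 100 bases in POM121 transcripts 40.8% also occurred in another gene, and 47.5% of those of POM121C did. How the counting split such reads is not stated, so values of this pair are uncertain.

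Library totals ran from 8039176 to 9531568 counts in labelled NLS, from 20746393 to 21096586 in control NLS, from 34705126 to 52421161 in labelled OMM and from 35165227 to 41660431 in control OMM. A floor of 3 counts, expressed as CPM (counts scaled to the library total), was 0.142 to 0.373 for NLS libraries and 0.0572 to 0.0864 for OMM libraries, and the lowest value of any nuclear pore gene was 8.09 CPM. The 30 genes together took 0.555% and 0.567% of all counts in labelled NLS libraries, against 0.647% and 0.609% in control NLS libraries. In labelled OMM libraries they took 0.447% and 0.477%, against 0.367% and 0.417% in control OMM libraries. NEAT1, a nuclear non-coding RNA, averaged 1353 ± 117 CPM in labelled NLS and 93.1 ± 9.29 CPM in control NLS libraries (SD, n = 2 each). CANX, the mRNA of an ER membrane chaperone, averaged 4743 ± 1149 CPM in labelled OMM and 1347 ± 87.5 CPM in control OMM libraries. Markers of HEK293T and epithelial cells (8 genes, among them VIM and KRT18) summed to 273 to 315 CPM in labelled NLS against 847 to 885 CPM in control NLS, and to 771 to 874 CPM in labelled OMM against 681 to 759 CPM in control OMM. These markers were uneven. In labelled and control NLS libraries VIM averaged 116 and 457 CPM and CDH2 110 and 225 CPM. KRT8 averaged 3.03 and 7.76 CPM there, and EPCAM 0.57 and 0.89 CPM. EPCAM averaged 1.00 CPM in labelled OMM and 0.33 CPM in control OMM libraries. Markers of other cell types (10 genes) summed to 1.41 to 2.28 CPM in labelled NLS against 2.68 to 3.39 CPM in control NLS, and to 0 to 5.59 CPM in labelled OMM against 0 to 0.0282 CPM in control OMM. Of those 10 markers, 8 were at 0 in all 4 OMM libraries.

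Replicates lay close together at NLS and further apart at OMM. The median absolute log2 difference between the 2 replicates, taken over the 30 genes, was 0.10 in labelled NLS, 0.12 in control NLS, 0.32 in labelled OMM and 0.21 in control OMM. Over all genes of at least 20 CPM it was 0.12, 0.14, 0.40 and 0.38 in the same 4 groups. The biological coefficient of variation fitted by edgeR, 1 value per compartment and not a value of the 30 genes, was 0.166 at NLS and 0.958 at OMM. NUP35 had the widest spread at OMM, a log2 difference of 1.95 between labelled libraries and 1.29 between control libraries.

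In labelled NLS libraries most nuclear pore mRNAs were lower than in control NLS libraries. Of 30 genes 23 were called lower and 3 higher (edgeR quasi-likelihood test, Benjamini-Hochberg adjusted p under 0.05 over all tested genes). Of all 20858 genes tested, 28.5% were called lower and 28.8% higher. The groups did not overlap for 25 genes that were lower and 3 that were higher, against 37.8% and 45.1% of all tested genes. The median log2 fold change of the 30 genes, labelled over control, was -0.68 and their range -1.41 to 0.54, whereas the median of all tested genes was 0.14. These are differences in recovered RNA, not in the transcript content of cells. Since each library pools many cells, fewer cells giving such RNA and less of it per cell cannot be told apart. With libraries scaled by size alone the median of all genes moved to 0.66, the median of the nuclear pore genes was -0.16, and 9 were called lower and 7 higher, where 16.1% of all tested genes were lower and 43.7% higher under that scaling. It changed the sign of 9 genes (NUP54, NUP58, NUP88, NUP98, NUP160, NUP210, NUP214, RAE1 and SEH1L). The distance between the medians was -0.81 under both scalings, and 27 of the 30 genes lay below the median of all genes under both. A change of scaling moves all genes by nearly the same amount, so this sameness is no check on the scaling. With a stricter filter, which keeps genes of at least 5 CPM on average, the all-gene median was 0.00, that of the 30 genes -0.44, and 23 lay below the all-gene median.

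**Figure D1:**
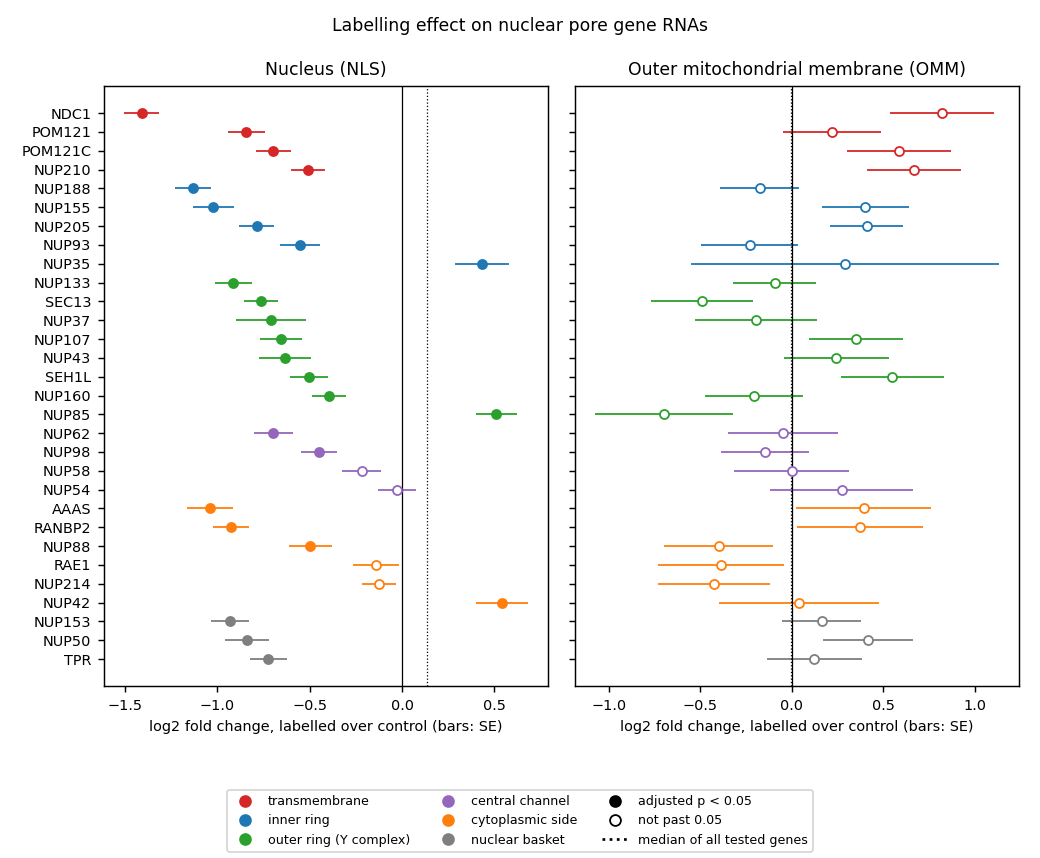
Log2 fold change, labelled over control, of the 30 nuclear pore genes at NLS (left) and OMM (right), coloured by place in the pore; bars are standard errors, filled points have an adjusted p under 0.05 and the dotted line is the median of all tested genes. At NLS 23 points are filled below 0 and 3 above it, and at OMM none is filled; scaled by library size alone, 9 are called lower and 7 higher at NLS.

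Among the transmembrane genes at NLS, NDC1, which encodes a multi-pass membrane nucleoporin needed for pore assembly, had 68.4 and 72.3 CPM in labelled NLS libraries, against 189 and 185 CPM in control NLS libraries. The labelled values were 0.377 of the control values, a log2 fold change of -1.41 ± 0.095 (SE, edgeR adjusted p = 2.3e-05), and NDC1 was the lowest of the 30 genes. POM121, which encodes an FG-bearing membrane nucleoporin, had 157 and 139 CPM in labelled NLS, against 272 and 259 CPM in control NLS libraries (log2 fold change -0.84 ± 0.10, edgeR adjusted p = 0.000247). Its copy POM121C had 118 and 113 CPM in labelled NLS, against 193 and 181 CPM in control NLS libraries (log2 fold change -0.70 ± 0.09, edgeR adjusted p = 0.000476). NUP210, whose protein is a single-pass glycoprotein lying mostly in the lumen of the envelope, had 279 and 263 CPM in labelled NLS, against 383 and 389 CPM in control NLS libraries (log2 fold change -0.51 ± 0.09, edgeR adjusted p = 0.00199). Both labelled libraries were below both controls for each of the 4 genes, as for 37.8% of all tested genes. Scaled by library size alone, neither call was made: the log2 fold changes were 0.01 for NUP210 (adjusted p = 0.929) and -0.18 for POM121C (adjusted p = 0.148).

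The inner ring, the scaffold layer next to the membrane, had 4 of 5 genes lower and 1 higher at NLS, with a median of -0.79 (3 lower and 1 higher with library size alone). Of all tested genes 28.5% were called lower and 28.8% higher, or 16.1% and 43.7% with library size alone. NUP188, a large scaffold subunit, had 170 and 155 CPM in labelled NLS, against 352 and 361 CPM in control NLS libraries (log2 fold change -1.13 ± 0.095, edgeR adjusted p = 4.9e-05). NUP155, which links the inner ring to the membrane, had 177 and 180 CPM in labelled NLS, against 396 and 329 CPM in control NLS libraries (log2 fold change -1.02 ± 0.11, edgeR adjusted p = 0.000153). NUP205 fell by 0.79 and NUP93 by 0.55 on the log2 scale. NUP35, a small inner-ring subunit that binds NUP155 and the membrane, went the other way, with 32.0 and 33.0 CPM in labelled NLS, against 24.0 and 24.2 CPM in control NLS libraries (log2 fold change 0.43 ± 0.145, edgeR adjusted p = 0.0339). That call was not made by DESeq2 (adjusted p = 0.0766), nor without labelled NLS library 1 (adjusted p = 0.156) or 3 (adjusted p = 0.189).

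The outer ring had 7 of 8 genes lower and 1 higher, with a median of -0.65 (-0.13 with library size alone, where 1 was lower and 1 higher). The shares of all tested genes were 28.5% lower and 28.8% higher, or 16.1% and 43.7% with library size alone. Log2 fold changes were -0.91 for NUP133, -0.76 for SEC13, -0.71 for NUP37, -0.66 for NUP107, -0.63 for NUP43, -0.50 for SEH1L and -0.39 for NUP160. SEC13 also serves in the COPII coat of ER vesicles and SEH1L in the GATOR2 complex of nutrient signalling. NUP160, the called gene with the smallest fall, had 168 and 171 CPM in labelled NLS, against 232 and 214 CPM in control NLS libraries (SE 0.09, edgeR adjusted p = 0.0076). Its log2 fold change was 0.125 with library size alone and -0.15 under the stricter filter, and neither passed (adjusted p = 0.294 and 0.182). NUP85, a scaffold subunit of the same complex, had 115 and 121 CPM in labelled NLS, against 88.9 and 77.04 CPM in control NLS libraries (log2 fold change 0.51 ± 0.11, edgeR adjusted p = 0.00525). NUP85 was thus the single outer-ring gene with both labelled libraries above both controls, as were 45.1% of all tested genes.

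Fewer genes of the channel and the cytoplasmic face were called. Of the 4 genes of the central channel, NUP62 and NUP98 fell, with log2 fold changes of -0.70 and -0.45, and NUP58 and NUP54 were not called, at -0.22 and -0.03. With library size alone 2 of the 4 were called higher, near the 43.7% of all tested genes. NUP98 encodes a precursor that is cleaved into an FG nucleoporin and a scaffold subunit. Of the 6 genes of the cytoplasmic side 3 fell, 1 rose and 2 were not called, with a median of -0.32. With library size alone 3 were higher and 2 lower, with a median of 0.20. The shares of all tested genes were 28.5% lower and 28.8% higher, or 16.1% and 43.7% with library size alone. With so few genes, these counts are not read as results about the place in the pore. AAAS, which encodes ALADIN, a protein held at the pore by NDC1, had 39.0 and 35.2 CPM in labelled NLS, against 79.8 and 73.0 CPM in control NLS libraries (log2 fold change -1.04 ± 0.12, edgeR adjusted p = 0.000241). RANBP2, the large SUMO ligase of the cytoplasmic filaments, had 349 and 324 CPM in labelled NLS, against 637 and 643 CPM in control NLS libraries, a log2 fold change of -0.93. NUP88 fell by 0.50 on the log2 scale, whereas NUP214, its partner and the docking site of exported cargo, was at -0.13 and the mRNA export factor RAE1 at -0.14, neither called. NUP42, which works with GLE1 in mRNA release, had 69.8 and 85.3 CPM in labelled NLS, against 49.2 and 57.3 CPM in control NLS libraries (log2 fold change 0.54 ± 0.14, edgeR adjusted p = 0.0116), the highest of the 30. Without labelled NLS library 3 NUP42 was at 0.43 and not called (adjusted p = 0.0733). Of the 100-base stretches of NUP42 27.8% also occur in other genes, most often in the antisense gene AC005082.2, and the strand setting of the counting is not given, so reads of the pair cannot be told apart.

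The nuclear basket had 3 of 3 genes lower, with a median of -0.84, where 28.5% of all tested genes were lower. With library size alone 1 of the 3 was called lower, at a median of -0.32, where 16.1% of all tested genes were lower. TPR, the coiled-coil backbone of the basket, had 698 and 669 CPM in labelled NLS, against 1177 and 1085 CPM in control NLS libraries (log2 fold change -0.72). NUP153, which anchors the basket, had 226 and 253 CPM in labelled NLS, against 478 and 437 CPM in control NLS libraries (log2 fold change -0.93). NUP50, a soluble import cofactor, had 152 and 149 CPM in labelled NLS, against 300.0 and 239 CPM in control NLS libraries (log2 fold change -0.84). In each of the 3 genes both labelled libraries lay below both controls, as in 37.8% of all tested genes.

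**Figure D2:**
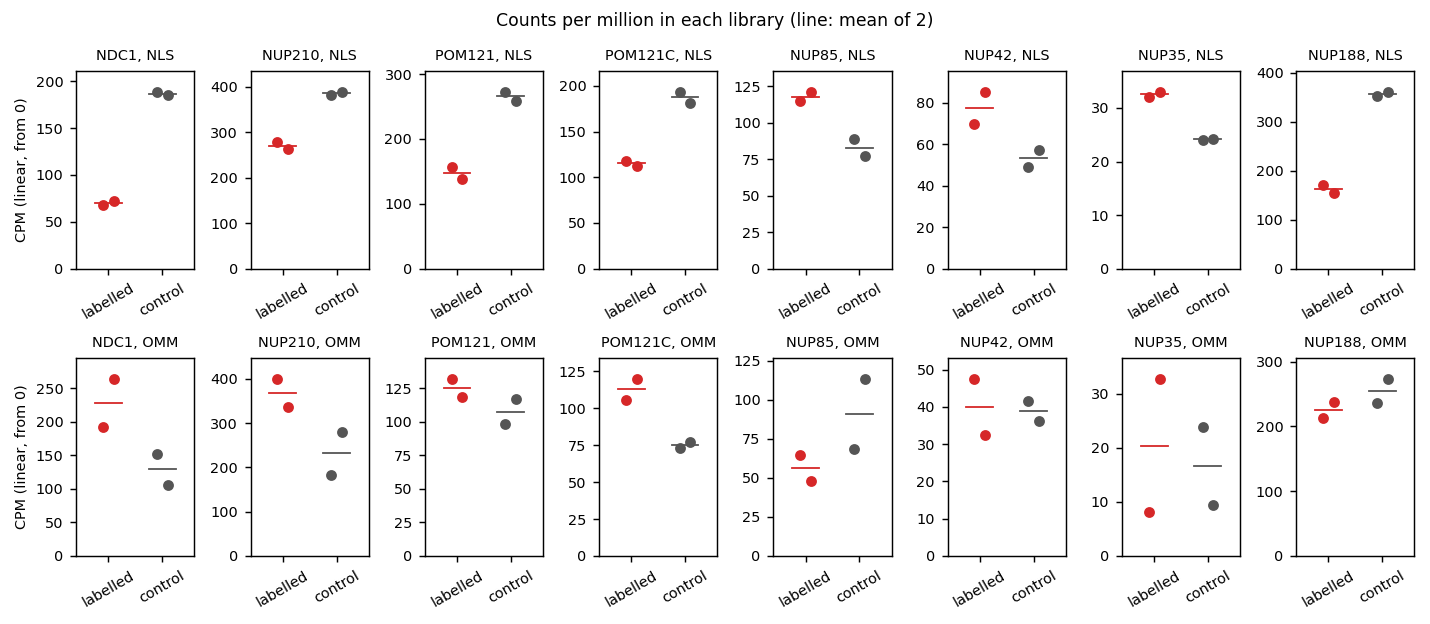
CPM on a linear axis from 0 in each labelled (red) and control (grey) library for 8 nuclear pore genes at NLS (top) and OMM (bottom), with a line at the mean of 2 libraries. At NLS NDC1 has 68.4 and 72.3 CPM in labelled against 189 and 185 CPM in control libraries, and at OMM 193 and 264 CPM in labelled against 152 and 107 CPM in control libraries.

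At OMM no nuclear pore gene passed the edgeR test. On simulated data that test called 1 of 100 changes of 1 log2 unit at OMM, against 60 of 100 at NLS. A gene not called at OMM is therefore not shown to be unchanged. The 4 transmembrane genes all had both labelled OMM libraries above both control OMM libraries. By edgeR 0 of 30 genes were called in each direction, where 0.139% of 14438 tested genes were called higher and 0.0554% lower; 2 of the 30, NDC1 and NUP210, had an unadjusted p under 0.05, both higher, where 5.94% of all tested genes were higher and 4.62% lower at that p. DESeq2 called 3 higher (NDC1, POM121C and SEH1L) and 0 lower, where 6.57% of tested genes were called higher and 6.15% lower. The authors' deposited table held 2 of the 30 as higher at an adjusted p under 0.05, NDC1 and POM121C, and 0 as lower. The share of all genes called in that table was not counted, so these 2 numbers are not read as a result about the 30 genes. The groups did not overlap for 12 genes that were higher and 6 that were lower, against 21.3% and 22.5% of all tested genes. The median log2 fold change of the 30 genes was 0.14, and that of all genes -0.002.

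NDC1 had 193 and 264 CPM in labelled OMM, against 152 and 107 CPM in control OMM libraries. Its log2 fold change of 0.82 ± 0.28 was the highest of the 30 (SE, edgeR adjusted p = 0.339; DESeq2 adjusted p = 0.0153). NUP210 had 399 and 337 CPM in labelled OMM, against 182 and 281 CPM in control OMM libraries (log2 fold change 0.67 ± 0.26, edgeR adjusted p = 0.400). The gap between its 2 controls, 182 and 281 CPM, was wider than that between its lowest labelled and its highest control library. POM121C had 106 and 120 CPM in labelled OMM, against 73.3 and 76.9 CPM in control OMM libraries (log2 fold change 0.59 ± 0.285, edgeR adjusted p = 0.521; DESeq2 adjusted p = 0.0330). POM121 had 132 and 118 CPM in labelled OMM, against 98.01 and 117 CPM in control OMM libraries, a log2 fold change of 0.22 ± 0.27 (edgeR adjusted p = 0.912). Without control OMM library 3 the log2 fold changes were 0.39 for NUP210 and 0.10 for POM121, and without control OMM library 4 they were 1.02 and 0.355. For POM121 the lower labelled library and the higher control library were nearly level. In the authors' deposited table the log2 fold changes were 0.830 for NDC1 (adjusted p = 0.0116), 0.673 for NUP210 (adjusted p = 0.0543), 0.591 for POM121C (adjusted p = 0.0444) and 0.224 for POM121 (adjusted p = 0.596).

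The soluble genes at OMM spread around 0. Log2 fold changes of the inner ring were 0.41 for NUP205, 0.40 for NUP155, 0.29 for NUP35, -0.18 for NUP188 and -0.23 for NUP93. In the outer ring they were 0.55 for SEH1L, 0.35 for NUP107, 0.24 for NUP43, -0.09 for NUP133, -0.19 for NUP37 and -0.21 for NUP160, with SEC13 and NUP85 lower still. SEH1L, with 114 and 113 CPM in labelled OMM against 74.7 and 80.6 CPM in control OMM libraries, was the highest soluble gene (DESeq2 adjusted p = 0.0407, edgeR adjusted p = 0.540). NUP85, the lowest, had 64.5 and 47.8 CPM in labelled OMM, against 68.8 and 113 CPM in control OMM libraries (log2 fold change -0.70 ± 0.38, edgeR adjusted p = 0.564). SEC13 had 107 and 82.7 CPM in labelled OMM, against 129 and 138 CPM in control OMM libraries (log2 fold change -0.49 ± 0.28, edgeR adjusted p = 0.581). NUP214 had 71.5 and 72.0 CPM in labelled OMM, against 85.5 and 107 CPM in control OMM libraries (log2 fold change -0.42 ± 0.31, edgeR adjusted p = 0.708). Without control OMM library 3 the log2 fold changes were -1.01 for NUP85 and -0.58 for NUP214, and without control OMM library 4 they were -0.29 and -0.25. For these last 3 genes the labelled libraries lay below both controls, though none passed the test. The channel genes lay between -0.15 for NUP98 and 0.27 for NUP54. On the cytoplasmic side AAAS was at 0.39 and RANBP2 at 0.37, NUP42 at 0.04, and RAE1 and NUP88 at -0.39 and -0.40. Basket genes were at 0.42 for NUP50, 0.16 for NUP153 and 0.12 for TPR.

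Set side by side, the medians of transmembrane and soluble genes lay further apart at OMM than at NLS, a difference that was not tested. The median log2 fold change of NUP210, NDC1 and POM121 was 0.67 at OMM, against 0.02 for the 26 soluble genes, a difference of 0.65. With POM121C counted among the transmembrane genes, an alternative chosen after the data were seen, the difference was 0.61. At NLS the medians were -0.84 for the 3 genes and -0.65 for the soluble genes, a difference of -0.20, or -0.12 with POM121C. The ranges overlapped in both compartments. At OMM the 3 genes ran from 0.22 to 0.82 and the soluble genes from -0.70 to 0.55, and at NLS the 3 genes ran from -1.41 to -0.51 and the soluble genes from -1.13 to 0.54. No test was made of these medians, since genes are not replicates. Leaving out 1 OMM library at a time moved the OMM difference between 0.31, without control OMM library 3, and 0.67, and leaving out 1 NLS library moved the NLS difference between -0.41, without labelled NLS library 1, and -0.12.

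**Figure D3:**
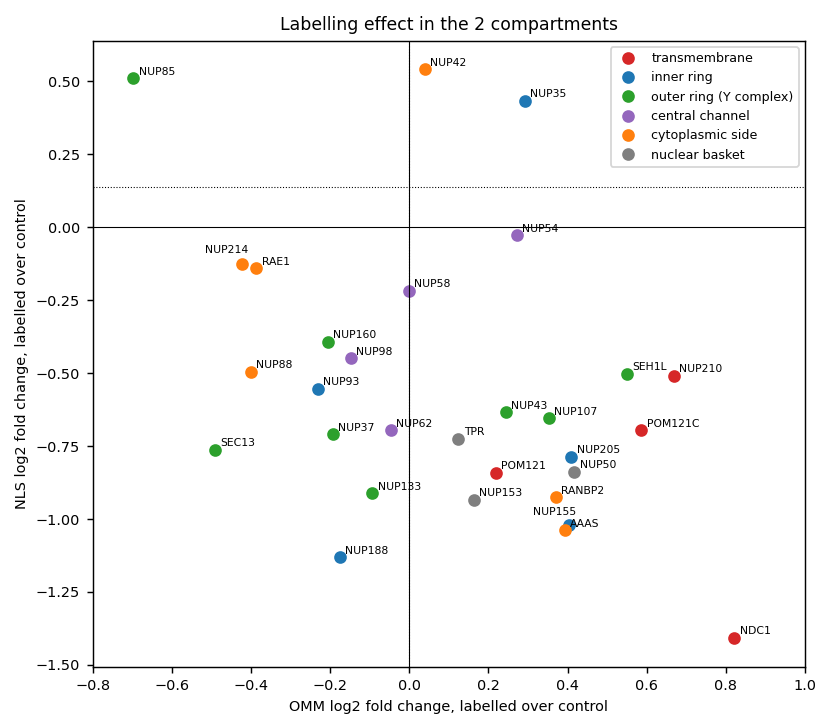
Log2 fold change, labelled over control, at NLS (vertical axis) against that at OMM (horizontal axis) for the 30 nuclear pore genes, coloured by place in the pore; solid lines mark 0 and the dotted line the median of all tested genes at NLS, 0.14. NDC1 lies at the lower right with -1.41 and 0.82, and NUP85 at the upper left with 0.51 and -0.70.

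The difference between the labelling effects at NLS and OMM was tested as an interaction in a joint fit of the 8 libraries. On simulated data that test called 0 of 100 changes of 1 log2 unit and 4 of 100 of 2 log2 units. A gene not called here is therefore not shown to have equal effects at both sites. Of the 30 genes 9 had a lower effect at NLS than at OMM and 0 a higher one by edgeR, where 6.73% of 23178 tested genes were called lower and 1.41% higher. At an unadjusted p under 0.05, 17 were lower and 1, NUP85, was higher, where 15.3% of all tested genes were lower and 7.75% higher. DESeq2 called 11 lower and 2 higher, where it called 11.3% of genes lower and 12.5% higher. The 9 genes were NDC1, POM121 and POM121C of the membrane, NUP155, NUP188 and NUP205 of the inner ring, NUP153 and NUP50 of the basket, and SEH1L of the outer ring. NDC1 had the largest difference of the 30, -2.25 log2 units (edgeR adjusted p = 0.0122). NUP210 differed by -1.21 and did not pass in the main fit (edgeR adjusted p = 0.0571), nor did NUP85, which differed by 1.18 (edgeR adjusted p = 0.136). Both depended on the setting. DESeq2, and edgeR with no filter on low counts, called all 4 transmembrane genes lower, NUP210 among them. With no filter NUP85 was called higher. Leaving out 1 of the 8 libraries at a time put the difference for NDC1 between -2.53 and -1.99. No call among the 30 was left when any 1 of the 4 NLS libraries was omitted, while the difference for NDC1 stayed between -2.22 and -2.18. Without either control NLS library 0 of all tested genes were called in each direction, and without labelled NLS library 1 or 3 the numbers called over all genes were 473 and 305. With library size alone 1 of the 30, NDC1, was called lower (-1.81, where 2.52% of all tested genes were lower), and with DESeq2-type size factors in edgeR also NDC1 alone (-1.83, with 2.70%). The median difference of the 30 genes was -0.86 in the main scaling, -0.40 with library size alone and -0.44 with DESeq2-type factors, and the all-gene medians were 0.11, 0.575 and 0.52. The 2 compartments also differ in kit and RNA selection, and the part of these in the interaction cannot be told apart from that of the compartment.

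The levels of the genes were compared per kilobase of exon, with the exons of all transcripts of a gene joined. For SEC13 that length was 5.45 kb, against 1479 bases in the transcript with its longest coding sequence. Another choice of length could thus give another order. Per kilobase of exon, control NLS libraries held most of TPR (91.6 CPM per kb), NUP205 (79.4) and NUP153 (75.9), and least of NUP35 (5.96). Control OMM libraries held most of NUP205 (46.4 CPM per kb) and NUP133 (37.7) and least of NUP35 (4.11). TPR, first at NLS, had 19.8 CPM per kb in control OMM libraries. In labelled OMM libraries NUP205 was first with 61.7 CPM per kb, followed by NUP210 with 45.0 and NDC1 with 44.5. NUP35 was thus the scarcest per kilobase of exon in the controls of both compartments.

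The gene structure was compared with the fold changes as a description. Across the 30 genes, which share their libraries, Spearman's rho between transcript length and log2 fold change was -0.37 at NLS and 0.25 at OMM. For the highest hydropathy it was -0.29 at NLS and 0.18 at OMM. Of the soluble genes with the most hydrophobic windows, NUP205 (2.03) was at 0.41 at OMM, AAAS (1.87) at 0.39 and NUP214 (1.86) at -0.42, so their effects pointed both ways. The genes with many adjacent phenylalanine and glycine codons were also spread. Phenylalanine and glycine codons stood next to each other 44 times in NUP214, 41 times in NUP98, 29 times in NUP153 and 24 times in POM121. The 13 genes with at least 5 such pairs, among them all 4 transmembrane genes, had a median log2 fold change of -0.70 at NLS and 0.22 at OMM, against -0.66 and -0.09 for the 17 genes with fewer. Without the transmembrane genes the 9 left had medians of -0.45 at NLS and 0.04 at OMM. The groups follow the number of pairs and not their density, so they are not a list of FG nucleoporins. NUP210 entered with 5 pairs (0.26 per 100 codons), whereas RAE1 and NUP35 (0.92 each) did not.

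**Figure D4:**
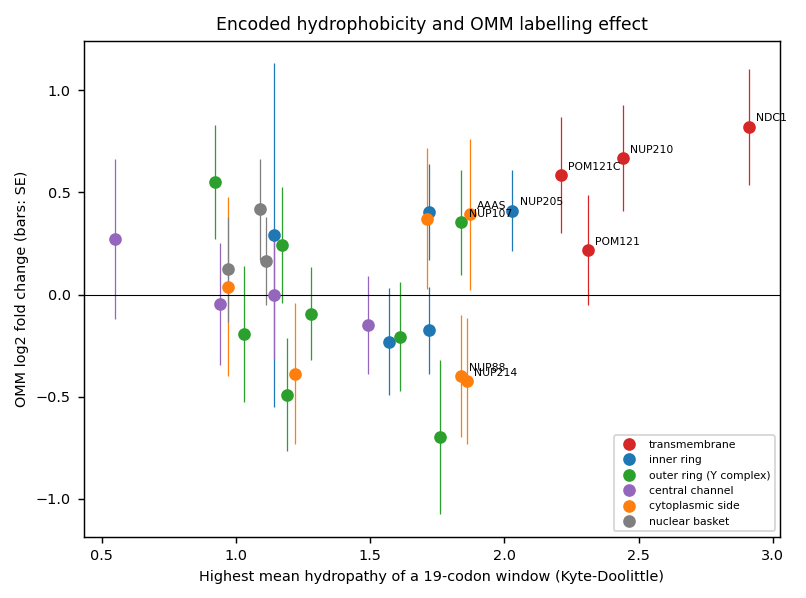
Log2 fold change at OMM, labelled over control (bars are standard errors), against the highest mean Kyte-Doolittle hydropathy of 19 codons in each of the 30 coding sequences. The 4 transmembrane genes lie to the right, between 2.21 and 2.91, with fold changes from 0.22 to 0.82, and the soluble genes AAAS (1.87) and NUP214 (1.86) lie on either side of 0, at 0.39 and -0.42.

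Several nuclear pore genes have copies or neighbours that could share their reads. RANBP2 shares 14.6% of its 100-base stretches, most often with RGPD8, a member of a family of copies of RANBP2. RGPD8 had 6.95 and 7.86 CPM in labelled NLS, against 6.56 and 4.19 CPM in control NLS libraries. POM121B, a further POM121 copy, had 5.37 and 3.93 CPM in labelled NLS, against 13.97 and 10.96 CPM in control NLS libraries (log2 fold change -1.41, edgeR adjusted p = 0.00452). Both copies were thus at lower levels than RANBP2, POM121 and POM121C in every NLS library. NUP62 shares 22.0% of its stretches, most often with its antisense neighbour ATF5, and NUP88 14.9%, most often with its antisense neighbour RPAIN.

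The factors that carry cargo through the pore were measured beside it. Of 43 listed transport factors 42 were tested at NLS, and 31 were called lower and 5 higher, with a median log2 fold change of -0.64. Among all 20858 tested genes 28.5% were lower and 28.8% higher. With library size alone 20 were lower and 6 higher, with a median of -0.12, where 16.1% of all tested genes were lower and 43.7% higher. By role, 14 of 19 importins and import adaptors were lower and 2 higher, 6 of 7 exportins lower, 4 of 5 Ran-cycle genes lower and 1 higher, and 7 of 11 mRNA export and pore-bound factors lower and 2 higher. RAN, the GTPase whose gradient gives transport its direction, had 233 and 214 CPM in labelled NLS, against 741 and 779 CPM in control NLS libraries (log2 fold change -1.76 ± 0.10, edgeR adjusted p = 1.8e-05). NUTF2, the import carrier of RAN, had 41.1 and 39.0 CPM in labelled NLS, against 121 and 135 CPM in control NLS libraries (log2 fold change -1.67 ± 0.11). Both were further below 0 than NDC1. IPO9, an importin, had 448 and 457 CPM in labelled NLS, against 312 and 318 CPM in control NLS libraries (log2 fold change 0.525 ± 0.09, edgeR adjusted p = 0.0016). PCID2, a subunit of the TREX-2 export complex, had 54.9 and 59.3 CPM in labelled NLS, against 28.2 and 31.6 CPM in control NLS libraries (log2 fold change 0.94 ± 0.13, edgeR adjusted p = 0.000617). At OMM edgeR called 0 of the 42 in each direction, with 10 at an unadjusted p under 0.05, where 10.6% of all tested genes had such a p. DESeq2 called 5 of the 42 higher and 4 lower, where it called 6.57% and 6.15% of all tested genes. The median at OMM was 0.03, and RAN was at -0.61 there, with 923 and 748 CPM in labelled OMM against 1274 and 1276 CPM in control OMM libraries (edgeR adjusted p = 0.258).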

How the data were processed

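RNA bound to streptavidin was measured in 8 libraries, 2 per group. Gene-level read counts deposited by the authors come from STAR and HTSeq, per the submitters' processing notes. Those notes list the builds hg38 and GRCh38.p13, and Trimmomatic, bedtools, SAMtools and DESeq2 besides; tool versions and the strand setting of counting are not given. A table of log2 fold changes, with a p-value for each gene, was deposited as well. DESeq2 1.42.0 on all genes with a count (41020 at NLS, 19296 at OMM) matched 100% of the authors' fold changes to 0.01, and 100% (NLS) and 99.993% (OMM) of their p-values to 1% of an adjusted p, so theirs are adjusted. The DESeq2 values reported as an alternative come from filtered genes and differ from those. Columns were given to a group where their names showed compartment and arm, and 4 count and 2 comparison columns matching no sample were not used. Numbers of libraries are those of the columns and differ from those of the titles. The design text gives release with Proteinase K (NLS) or TRIzol (OMM) and the sample labels an RNeasy kit.

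Here the counts were tested with edgeR 4.0.16 (R 4.3.3), robust quasi-likelihood, TMM factors, filterByExpr with a minimum count of 10, prior count 0.125, each compartment apart, two-sided, Benjamini-Hochberg adjusted over all tested genes with a threshold of 0.05. All 30 genes passed the filter in both compartments. CPM uses the TMM factors, and the standard error is the size of the log2 fold change over the square root of F. The compartments were compared by the interaction in a joint fit of 8 libraries. Replicates of a group differed beyond counting noise in every group, so none was merged with another. The script was tested on simulated data. Floors cover counting error only. Annotation came from GENCODE 29; 58396 of 60664 identifiers and all 30 genes matched. Alternatives were size scaling, DESeq2, filters, a joint fit, leaving out libraries and a block on library number.

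The 30 genes, role lists and transport lists were chosen with earlier results of these data known. Any of the 30 could be named. Full statistics were given for the 4 transmembrane genes, the 4 highest and 4 lowest called at NLS (since 3 rose, the fourth of the highest is the called gene with the smallest fall), the 3 highest and 3 lowest at OMM, and the 2 highest and 2 lowest called transport factors. Values of RANBP2, TPR, NUP153, NUP50 and SEH1L per library were added after their values were seen, as were NEAT1, CANX, RGPD8 and POM121B.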

Additional observations from a re-analysis of the deposited data

Results flagged for a closer look

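The labelling effects of 9 genes differed between NLS and OMM by a test of the difference itself (edgeR interaction over 8 libraries, adjusted over all 23178 tested genes). Among all tested genes 6.73% were called lower at NLS than at OMM and 1.41% higher. The NLS minus OMM difference on the log2 scale was -2.25 for NDC1 (adjusted p = 0.0122), -1.31 for POM121C (adjusted p = 0.0126) and -1.09 for POM121 (adjusted p = 0.0302), the membrane nucleoporins. It was -1.45 for NUP155 (adjusted p = 0.0127), -1.22 for NUP205 (adjusted p = 0.0136) and -0.98 for NUP188 (adjusted p = 0.0241) in the inner ring. In the basket it was -1.12 for NUP153 (adjusted p = 0.0161) and -1.28 for NUP50 (adjusted p = 0.0366), and SEH1L of the outer ring had -1.08 (adjusted p = 0.0249). NUP188 differed although both of its effects were below 0, at -1.13 in labelled over control NLS and -0.18 in labelled over control OMM libraries. For the other 8 genes the effect was below 0 at NLS and above 0 at OMM, except that SEH1L was above 0 at NLS when libraries were scaled by size alone. With library size alone the differences were smaller, from -0.52 for NUP188 to -1.81 for NDC1, with POM121 at -0.62 and SEH1L at -0.61; with DESeq2-type size factors these 4 were -0.56, -1.83, -0.67 and -0.65. Of the 9 genes, NDC1 alone was called under either. Compartment and library kit cannot be told apart in these values.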

How the results depend on the processing

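At NLS, scaling by library size alone gave 7 genes higher and 9 lower, where 43.7% of all tested genes were higher and 16.1% lower. Medians were -0.16 over all 30 genes, -0.32 over the 3 transmembrane and -0.13 over the soluble genes. That scaling turned NUP210 to 0.01 and NUP160 to 0.125. DESeq2-type size factors in edgeR gave medians of -0.63 and -0.605 over all and soluble genes, and DESeq2 gave -0.63 and -0.60. The stricter filter gave -0.44, -0.60 and -0.41 over all, transmembrane and soluble genes. The joint fit called 0 higher and 10 lower, where 0.915% of all tested genes were higher and 9.41% lower. In that fit 0.497 for NUP85 had an edgeR adjusted p of 0.329, and the OMM libraries, which vary more, entered the estimate of spread. Whether their spread accounts for the fewer calls was not tested. Leaving out 1 NLS library at a time gave 1 to 3 higher (1 without labelled NLS library 3) and 22 to 23 lower, with medians of -0.74 to -0.52 over all, -0.70 to -0.50 over soluble and -0.91 to -0.72 over transmembrane genes, and -0.41 to -0.12 for their difference. The single library left in an arm is then assumed to vary like the rest.

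At OMM, DESeq2 called 3 higher, where it called 6.57% of all tested genes higher. The soluble median was -0.002 under the stricter filter and -0.082 to 0.077 with 1 library left out, being -0.04 without control OMM library 4 and -0.082 without labelled OMM library 3. The difference between transmembrane and soluble medians was 0.31 to 0.67, and calls stayed at 0 in each direction by edgeR under each alternative run. For the difference between compartments, 1 gene was lower with library size alone and 1 with DESeq2-type size factors, 14 with no filter and 5 with the stricter one. Over all tested genes the shares called lower were 2.52%, 2.70%, 4.84% and 9.02% in the same order. Higher genes numbered 2 by DESeq2 and 1 each with no filter and with the stricter filter. Over all tested genes 12.5%, 1.64% and 4.37% were higher in these settings. Leaving out 1 library gave 0 to 11 lower and 0 to 1 higher, with 0 lower without any 1 of the 4 NLS libraries. The causes of these changes were not tested.

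With the library number as a replicate block, the NLS fit called 2 higher and 23 lower, where 24.3% of all tested genes were higher and 27.3% lower. The transmembrane median was -0.845 and its difference from the soluble median -0.20. NUP35 was no longer called (edgeR adjusted p = 0.0533), and no other named gene changed its call. Same-numbered NLS libraries deviated from their group means with a correlation of -0.086 over 12976 genes, so no shared deviation was seen. With 2 libraries per arm this cannot settle whether the numbers mark pairs. At OMM, no paired analysis was possible because the columns of the 2 arms share fewer than 2 numbers. Every library held more than the floor of 3 counts of each of the 30 genes.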
